A study of Bos taurus with 6 samples.

Results

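The most recently numbered bovine miRNAs, those with the species prefix bta and a number of 11000 or more, were examined in granulosa cells under heat stress (HS). All names of the form bta-miR-N with N of at least 11000 were taken, whatever letter or arm followed the number. The rule uses names alone and gave 97 of the 1028 miRNAs listed in each library, running from bta-miR-11971 to bta-miR-12064. Of these names 31 lie below the number 12000 and 66 at or above it. None carries a 5p or 3p suffix, so the arm of the hairpin that each stands for is not in the name. The nearest names below the limit were bta-miR-10225a and bta-miR-10225b, both at 0 in every library. At the lower edge of the set, bta-miR-11971 had 14.8 normalised CPM on average.

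Cells came from bovine small antral follicles of 3 to 6 mm collected at a slaughterhouse, were cultured for 24 h with exosome-depleted serum, and were then held for 24 h at 37 °C (control) or at 42 °C (HS). Each group had 3 libraries, numbered 1 to 3 by the submitters as biological replicates. No animal, age or breed is given, and whether a number marks cells of the same follicles in both groups is not stated. The unit throughout is TMM-normalised CPM, a share of the miRNA reads of a library scaled between libraries, and the files also gave back the whole reads behind each value.

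A miRNA is cut from a hairpin precursor by Drosha in the nucleus and Dicer in the cytoplasm, and the mature strand guides an Argonaute protein to complementary messenger RNAs, which are then repressed. Numbers in the miRBase catalogue are given in the order of submission. High numbers therefore mark late entries, which were often found by deep sequencing in a single species and have no named relative in human or mouse. Some miRNAs lie inside a host gene and share its transcript, while others have a promoter of their own. Granulosa cells line the follicle, make oestradiol and activin, and are among the ovarian cells sensitive to heat.

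Library depth ran from 2076239 recovered reads in control replicate 1 to 4590971 in HS replicate 3. A floor of 3 reads corresponded to 0.639 to 1.46 normalised CPM, which covers counting error only. The gonadal miRNA bta-miR-202 was high in all libraries, at 1346 to 2749 normalised CPM in control and 1309 to 2095 in HS cells, whereas the neuronal bta-miR-124a was at 0 in each. The 6 blood cell miRNAs summed to 634.7 to 721.6 in control and 515 to 722.5 in HS cells, mostly bta-miR-142-5p and bta-miR-223, while of the red cell miRNAs bta-miR-486 ran from 11.98 to 60.1 over the libraries, bta-miR-451 from 0.557 to 2.65 and bta-miR-144 from 0 to 0.272. Sums for 5 mesenchymal miRNAs were 1324 to 2083 and 2008 to 2192 in the same order, for 6 epithelial ones 62.0 to 96.9 and 51.9 to 88.9, for 3 of striated muscle 55.2 to 245.1 and 61.1 to 199.3, and for the liver miRNA bta-miR-122 17.3 to 71.8 and 20.4 to 72.0. Every listed marker but bta-miR-124a had reads. Whether these other cell types bear on the values below was not tested, and in such bulk samples fewer cells of a type and less RNA per cell cannot be told apart. Control replicate 1 stood apart from the other controls for bta-miR-11987, bta-miR-11980, bta-miR-11975, bta-miR-11976 and bta-miR-11985, for which the fitted change is given below with and without it.

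The 97 miRNAs were a minor part of the cellular pool. They held between 0.0521% and 0.105% of the miRNA reads of a library, or 16008 of 21553066 reads in all. At least 1 read was seen for 64 of them (66.0%), and 34 had a read in all 6 libraries. The remaining 33 were at 0 throughout, which limits each to less than 0.139 CPM over the 6 libraries together. By the study's detection rule, 10 or more normalised CPM in at least 2 of 3 libraries, control cells had 8 of the 97 and HS cells 9, the same 8 among them. The miRNA that met the rule in HS cells alone was bta-miR-11976, whose gene overlaps PATZ1, a gene for a zinc finger transcription factor. Control replicates 1, 2 and 3 held 25.9, 8.04 and 6.97 normalised CPM of it and the HS replicates 20.2, 18.5 and 9.37, so the groups overlapped and the rule turned on values close to its minimum. None of the 97 was among the 100 most abundant miRNAs of the series, 4 were among the 200 most abundant and 12 among the 300 most abundant.

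The earlier numbers held 61.2% of these reads and the later ones 38.8%. Of the 31 miRNAs from bta-miR-11971 to bta-miR-11999, 28 had a read (90.3%), 21 were read in all 6 libraries and 6 were detected in at least 1 group. Of the 66 numbered 12000 or more, 36 had a read (54.5%), 13 were read in all 6 and 3 were detected. The median number of reads over the 6 libraries was 40 in the earlier numbers and 1 in the later ones. For comparison, 59.8% of the 241 names from bta-miR-2286 to bta-miR-2490 and 60.9% of the 133 numbered above those and below 11000 had a read, and 74.2% of all 931 other miRNAs did. The shares detected in at least 1 group were 9.28% for the 97 miRNAs, 8.30% and 17.3% for these ranges and 28.9% for all other miRNAs. These shares are set side by side as descriptions and were not tested against each other.

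**Figure D1:**
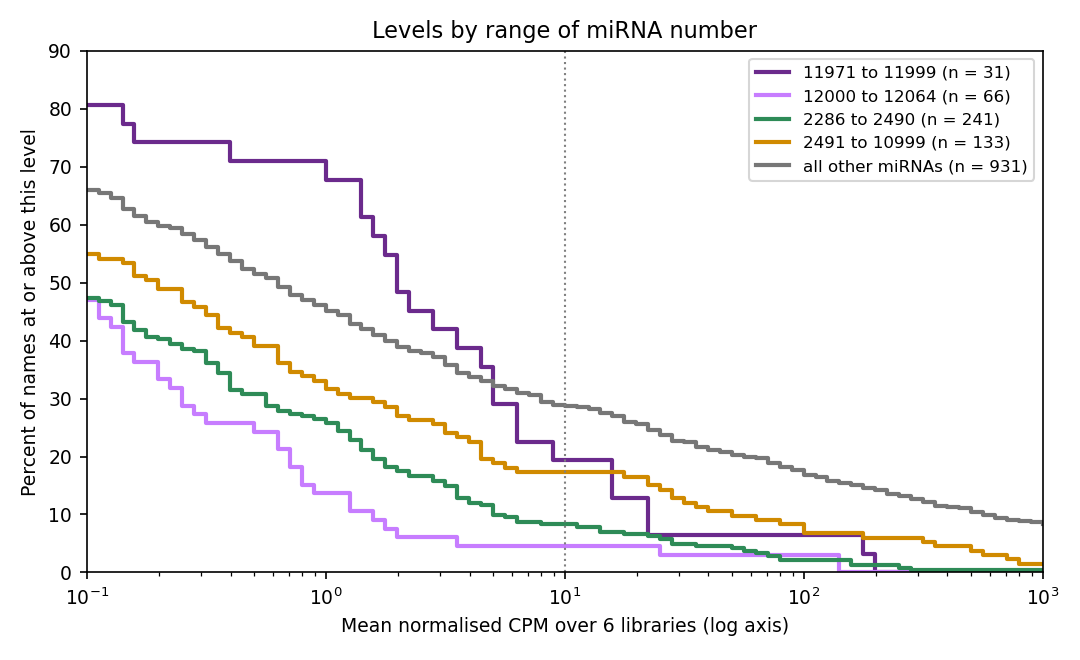
Percent of names whose mean normalised CPM over the 6 libraries reached a given level (log axis), with the detection minimum of 10 as a dotted line and 1 line for each range of miRNA numbers. At a mean of 1 or more stood 67.7% of the 31 names below the number 12000 against 13.6% of the 66 at or above it, and 45.1% of all other miRNAs.

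A gene was found for 95 of the 97 names in the RefSeq table of bovine assembly ARS-UCD2.0. The reads had been mapped to another build, so no position is given. The genes of 74 overlap a protein-coding gene, those of 4 overlap only a long noncoding RNA gene, and 17 overlap no other gene. The table used has no strand, so sense and antisense overlap cannot be told apart, and whether the place is an intron, an exon or a UTR was not examined. Where a miRNA is said to lie in or inside a gene, only overlap is meant. None of the 95 overlaps an annotated transfer, ribosomal, small nuclear or small nucleolar RNA gene. Of those overlapping a protein-coding gene, 50 of 74 had a read and 7 were detected in at least 1 group. Of those overlapping no gene, 9 of 17 had a read, and bta-miR-11987 alone was detected. Another miRNA gene lay within 10000 bases for 4 of them, among which bta-miR-12005 has a pair of overlapping gene copies inside PRICKLE1, a gene of planar cell polarity, so the copy that its reads came from is uncertain.

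Few reads came from the miRNA genes that overlap some well-known hormone and metabolic genes. The gene of bta-miR-11996 overlaps INHBA, which encodes the activin subunit made by granulosa cells, and 1 read of it was found in the 6 libraries. The gene of bta-miR-12053 overlaps IRS1, an adaptor of insulin signalling, and had 3 reads in all, and that of bta-miR-12004 overlaps SELENOP, the plasma selenium carrier, with 1, 3 and 0 reads in the control replicates and none under HS. For bta-miR-12037, which overlaps the mineralocorticoid receptor gene NR3C2, and bta-miR-12048, which overlaps the peptide hormone gene APLN, no read was found. These 5 were chosen after their values and overlapping genes were seen. Over all 74 miRNAs whose gene overlaps a protein-coding gene the median was 3 reads, so few reads were common in the set.

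A set of 4 miRNAs carried most of the reads. bta-miR-11987, bta-miR-11980, bta-miR-12034 and bta-miR-12030 together took 76.7% ± 1.71 of the reads of the 97 in the control group and 79.1% ± 3.02 in the HS group (SD, n = 3 each). Each of them averaged above 100 normalised CPM over the 6 libraries, from 126.7 for bta-miR-12030 to 183 for bta-miR-11987. The next in order, bta-miR-12005, stood at 23.9.

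Taken as 2 pairs, chosen after the values were seen, these miRNAs took shares that did not overlap between the groups. bta-miR-12030 and bta-miR-12034 together made up 39.8%, 56.3% and 58.7% of the reads of the 97 in control replicates 1, 2 and 3, but 28.3%, 13.9% and 23.7% in HS cells. bta-miR-11987 and bta-miR-11980 together made up 38.9%, 19.8% and 16.7% in the control replicates against 47.4%, 66.6% and 57.5% under HS. Control replicate 1 was the control library closest to the HS libraries in both. Such shares within a sum are not independent of each other, and no test was made of them. In normalised CPM, bta-miR-11987 and bta-miR-11980 together did overlap, with 377.9 in control replicate 1 against 361.7 in HS replicate 1. bta-miR-12030 and bta-miR-12034 together did not, at 290 to 387.2 in control and 144.4 to 215.7 in HS cells.

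**Figure D2:**
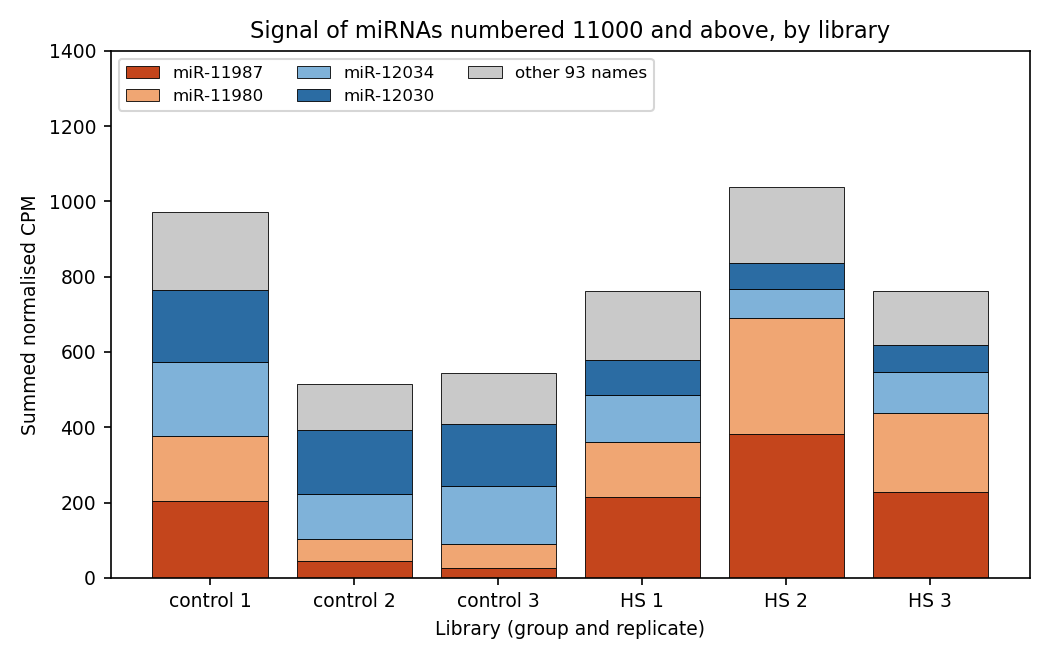
Summed normalised CPM of the 97 miRNAs in each library, stacked by miRNA, with the 93 others in grey. The sum was 514.9 to 972.5 in control and 762.4 to 1037 in HS cells, with bta-miR-12030 and bta-miR-12034 (blue) taking more of the control bars and bta-miR-11987 and bta-miR-11980 (orange) more of the HS bars.

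The sum itself did not separate the groups. The 97 miRNAs held 0.0676% ± 0.0246 of reads in the control group and 0.0854% ± 0.0168 in the HS group (SD, n = 3 each). Control replicate 1, at 0.0959%, lay above 2 of the 3 HS libraries. The sum of the 93 less abundant miRNAs ranged from 122.7 to 207.5 normalised CPM in control and from 143 to 202.3 in HS cells. Here control replicate 1 was the highest of all libraries.

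To ask which of these miRNAs responded to HS, limma was run over all 365 miRNAs that passed the filter on low reads, and 17 of the 97 were among them. Only bta-miR-12030 met the study's threshold, a change by 1 or more on the log2 scale with adjusted p no higher than 0.2, and it was lower in HS cells. That is 1 of 17, against 3.01% of all miRNAs tested, or 1.92% for those lower in HS cells. It was also the only one of the 17 with an adjusted p under 0.05, which 2.19% of all tested miRNAs reached. The study, which used edgeR, also calls bta-miR-11987 and bta-miR-11980 higher in HS cells, at a listed adjusted p just above 0.2. An unadjusted p under 0.05 was found for 4 of the 17, against 14.5% of all tested. Fitted values were higher in HS cells for 11 and lower for 6. Their median log2 fold change was 0.20 against -0.0015 over all tested, and the median size was 0.32 against 0.20. Leaving out control replicate 1 brought the number past either threshold to 3 of 18, by adding bta-miR-11987 and bta-miR-11980, where 4.23% of all tested passed the study's threshold and 3.17% had an adjusted p under 0.05. Leaving out control replicate 2 or 3 or HS replicate 2 or 3 brought the number under 0.05 to 0. As 80 of the 97 were too low to enter, these figures describe the better expressed names.

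**Figure D3:**
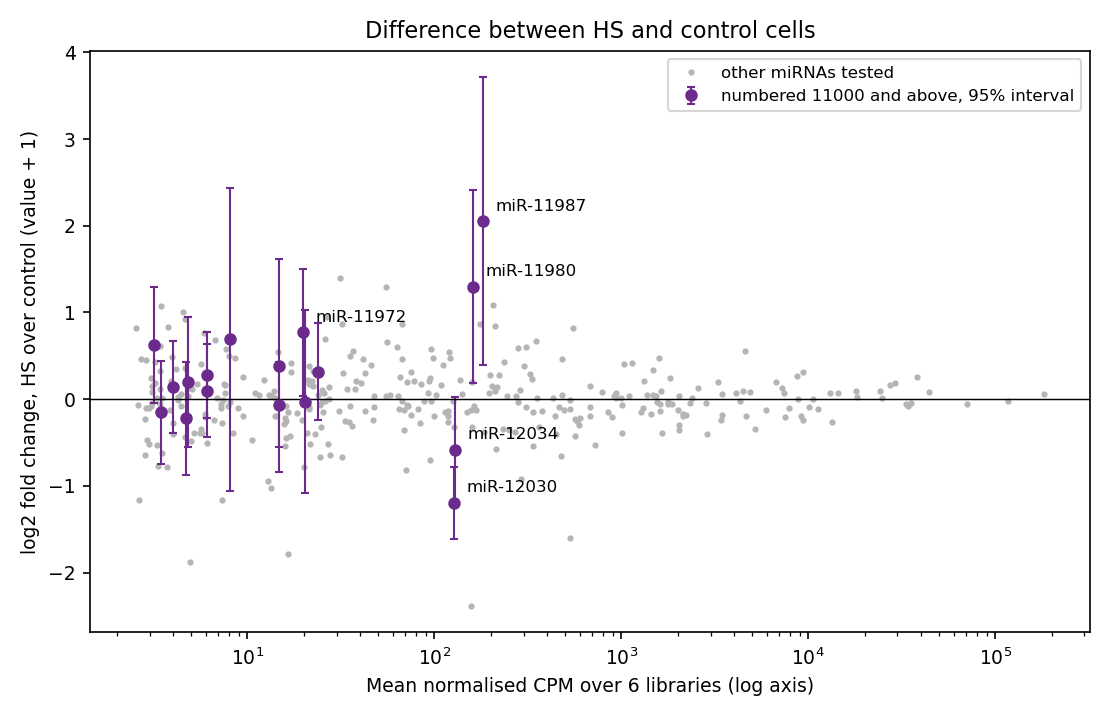
Log2 fold change (HS over control, on values plus 1) against mean normalised CPM (log axis) for the 365 tested miRNAs, with the 17 miRNAs numbered 11000 and above in purple and bars for the limma 95% interval. bta-miR-12030 at -1.20 has an interval from -1.61 to -0.78, while that of bta-miR-11987 at 2.05 runs from 0.39 to 3.71.

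bta-miR-12030, whose gene overlaps the long noncoding RNA gene LOC112448761, was lower in every HS library than in any control library. Control replicates 1, 2 and 3 held 192.4, 170.8 and 166 normalised CPM of it, on 394, 786 and 596 reads. The HS replicates held 91.6, 66.9 and 72.4, on 276, 246 and 340 reads. The mean went from 176.4 ± 14 to 76.9 ± 13.0 (SD, n = 3 each), a ratio of 0.436 with a fitted log2 change of -1.20 ± 0.176 (SE, limma adjusted p = 0.0164). It stayed lower in HS cells and past the study's threshold under all 18 alternatives, with adjusted p-values from 5.81e-07 to 0.105. The highest values came when a library was left out, at 0.0605 and 0.0785 without control replicates 2 and 3 and at 0.0978 and 0.105 without HS replicates 2 and 3. Control replicate 1 did not stand apart for this miRNA.

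bta-miR-12034 had a similar level and the same direction without passing the test in the fit reported here. Its gene overlaps SNX5, a sorting nexin gene of retrograde endosome transport. Control replicates 1, 2 and 3 held 194.8, 119.3 and 153 normalised CPM, and the HS replicates held 124.1, 77.5 and 108.6. The highest HS library exceeded the lowest control library. The log2 change was -0.58 ± 0.255 (SE, limma adjusted p = 0.37), with a 95% interval from -1.19 to 0.02. The adjusted p came under 0.2 in 3 of the 18 alternatives, at 0.164 and 0.192 when replicate number was blocked in limma and edgeR and at 0.197 under upper quartile scaling. The log2 change, -0.77 under that scaling, stayed short of the size that the study's threshold asks for. It was lower in HS cells in each of the 3 pairs of same-numbered libraries, though the numbers are not known to pair them. Reads of bta-miR-12030 per read of bta-miR-12034 were 0.987, 1.43 and 1.09 in the control replicates against 0.738, 0.863 and 0.667 under HS, so the ratio did not overlap between the groups either. This ratio was formed after the values were seen and was not tested.

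bta-miR-11987 and bta-miR-11980 were higher on average in HS cells but varied widely among control libraries. bta-miR-11987, which overlaps no annotated gene, had 203.6, 45.2 and 26.7 normalised CPM in the control replicates against 214, 381.8 and 226.9 under HS. The groups did not overlap, yet control replicate 1 came close to the lowest HS library, and the log2 fold change was 2.05 ± 0.7 (SE, limma adjusted p = 0.246). bta-miR-11980 lies in BRAT1, a gene of the DNA damage response, and had 174.3, 56.9 and 63.8 in the control replicates against 147.7, 308.9 and 211.6 under HS. Here control replicate 1 was above HS replicate 1, and the log2 fold change was 1.30 ± 0.47 (SE, limma adjusted p = 0.278). Both miRNAs were highest in HS replicate 2, and both were far higher in control replicate 1 than in the other controls. Reads of bta-miR-11987 per read of bta-miR-11980 were 1.17, 0.794 and 0.419 in the control replicates against 1.45, 1.24 and 1.07 under HS, so their proportion varied between libraries. Without control replicate 1 the fit gave 2.89 for bta-miR-11987 (limma adjusted p = 0.0162) and 1.80 for bta-miR-11980 (limma adjusted p = 0.0355). Leaving out HS replicate 1 or 3 gave 2.21 and 2.16 for bta-miR-11987 and 1.56 and 1.30 for bta-miR-11980, none below the fit to all libraries, while the remaining omissions lowered both. The value of bta-miR-11987 was 1.45 without control replicate 3 (limma adjusted p = 0.507), 1.82 without control replicate 2 (0.365) and 1.79 without HS replicate 2 (0.533), and edgeR on all libraries gave 1.59 (0.408). That of bta-miR-11980 was 1.01 without control replicate 2 (limma adjusted p = 0.408), 1.09 without control replicate 3 (0.639) and 1.03 without HS replicate 2 (0.533).

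Some markers varied with the same libraries and others did not. The gonadal bta-miR-202 was lowest in control replicate 1 and HS replicate 2, with 1346, 2749 and 2726 normalised CPM in the control replicates against 2095, 1309 and 1982 under HS. The muscle miRNA bta-miR-133a was highest in those libraries, at 126.5, 22.4 and 63.8 against 29.2, 105.2 and 56.4. The sum of all 3 muscle miRNAs was also highest there, at 245.1 in control replicate 1 and 199.3 in HS replicate 2. The other gonadal marker, bta-miR-383, did not follow bta-miR-202, with 9.76, 11.1 and 7.80 against 6.30, 9.52 and 5.53. The mesenchymal and epithelial sums were lowest of the controls in control replicate 1, at 1324 and 62.0, but highest under HS in HS replicate 2, at 2192 and 88.9. Control replicate 1 was in addition the library with the fewest recovered miRNA reads. The study gives it more reads passing quality control than the other controls. Of the cell libraries, it had the smallest share mapped to miRNAs and the largest share mapped to the genome. HS replicate 1 came next in both. The part of these markers, of depth and of the mapped shares in the values of bta-miR-11987 and bta-miR-11980 was not tested.

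**Figure D4:**
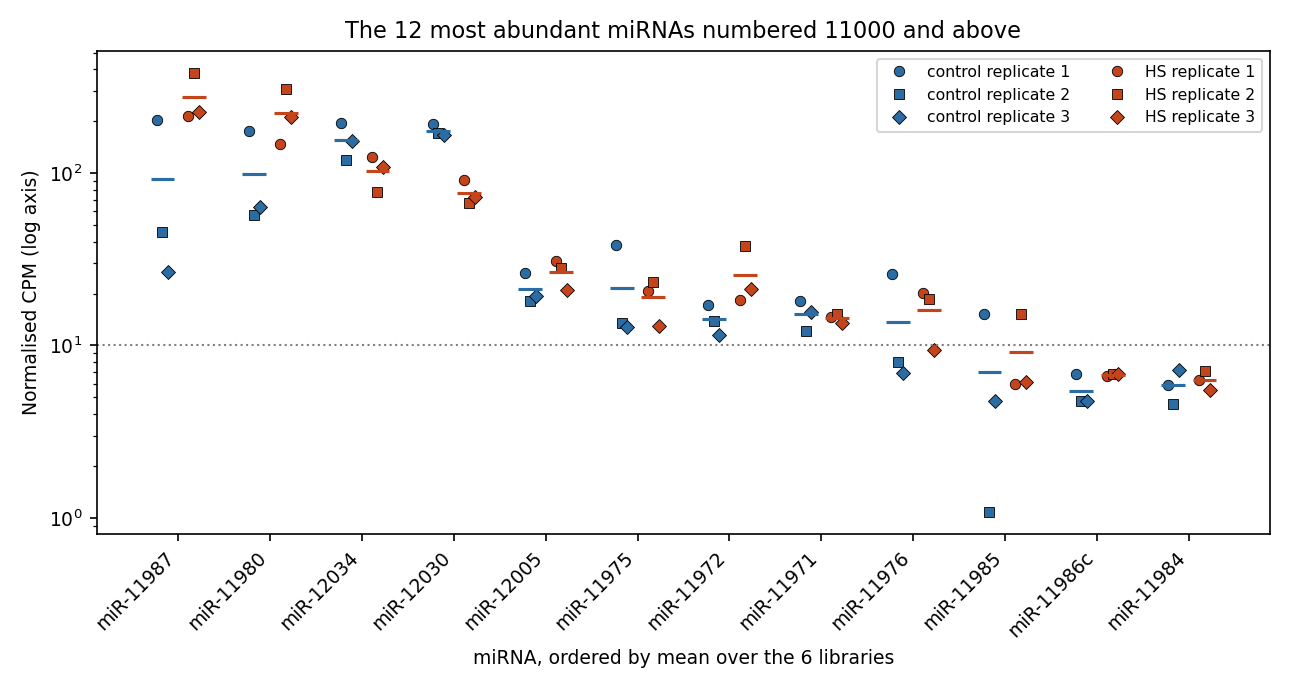
Normalised CPM (log axis) of the 12 most abundant of these miRNAs in each library, with blue for control, orange-red for HS, marker shape for replicate number, short lines for group means and a dotted line at the detection minimum of 10. bta-miR-12030 is the clearest separation, with control at 166 to 192.4 above HS at 66.9 to 91.6, while control replicate 1 (circle) lies near or above the HS points for bta-miR-11987, bta-miR-11980, bta-miR-11975, bta-miR-11976 and bta-miR-11985.

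Among the 8 next most abundant miRNAs, none passed the test. bta-miR-11972, in the gene of the apoptosis inhibitor BIRC6, had 17.1, 13.9 and 11.4 normalised CPM in the control replicates against 18.2, 37.8 and 21.3 under HS. The groups did not overlap, and HS replicate 2 was the highest (log2 fold change 0.77 ± 0.308, SE, limma adjusted p = 0.306). Without HS replicate 2 it came to 0.47 (limma adjusted p = 0.576). Across the 17 tested, bta-miR-12030, bta-miR-11987 and bta-miR-11972 were the 3 whose libraries did not overlap, 2 of them higher and 1 lower in HS cells. Over all miRNAs tested 20% did not overlap, 9.59% with HS higher and 10.4% with HS lower.

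bta-miR-12005 had 26.4, 18.0 and 19.2 normalised CPM in the control replicates against 30.9, 28.0 and 21.1 under HS, with a 95% interval of the log2 fold change from -0.24 to 0.87 (limma adjusted p = 0.635). bta-miR-11975, in the gene of MIA3, which helps export collagen from the endoplasmic reticulum, had 38.1, 13.5 and 12.8 in the control replicates against 20.6, 23.4 and 13.0 under HS. Its control values spanned the HS values, and the interval ran from -1.09 to 1.03 around -0.03 (limma adjusted p = 0.981). Without control replicate 1 the fitted value was 0.46 (adjusted p = 0.421). bta-miR-11971, in the membrane protein gene MEGF11, had 18.1, 12.2 and 15.6 in the control replicates against 14.6, 15.2 and 13.4 under HS. The 95% interval of its log2 fold change, from -0.55 to 0.43, lay within 1 in either direction (limma adjusted p = 0.959).

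bta-miR-11985, in the gene of the focal adhesion protein PARVB, had 15.1, 1.09 and 4.74 normalised CPM in the control replicates against 5.97, 15.2 and 6.17 under HS, on 5 to 56 reads per library. The spread within each group was larger than the difference between their means (log2 fold change 0.69, limma adjusted p = 0.807). It was 1.43 without control replicate 1 (adjusted p = 0.284) and -0.045 without control replicate 2 (adjusted p = 0.982). bta-miR-11984, in NOM1, a gene of ribosome assembly in the nucleolus, had 5.86, 4.56 and 7.24 in the control replicates against 6.30, 7.07 and 5.53 under HS, and the groups overlapped fully (limma adjusted p = 0.947). bta-miR-11976, described above for detection, gave 0.38 on the log2 scale (limma adjusted p = 0.839). Leaving out control replicate 1 gave 0.94 (adjusted p = 0.284) and leaving out control replicate 3 gave 0.060 (adjusted p = 0.988).

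Lettered names form small families here. bta-miR-11986c, in the long noncoding RNA gene LOC101903165, had 6.84, 4.78 and 4.74 normalised CPM in the control replicates against 6.64, 6.80 and 6.81 under HS (limma adjusted p = 0.639). bta-miR-11986b, in the gene of the tight junction protein occludin (OCLN), had 1.46, 1.96 and 3.62 in the control replicates against 3.98, 3.54 and 4.47 under HS, on 3, 9 and 13 against 12, 13 and 21 reads (log2 fold change 0.63, limma adjusted p = 0.388). The highest control library was just above the lowest HS library. bta-miR-11986 itself had no read. bta-miR-12002b had 1 read, in HS replicate 2, and bta-miR-12002a had none. How reads were shared between close sequences is not stated, so values within these families are uncertain to that extent.

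The tested miRNAs differed in how far replicates spread beyond counting noise. This was measured as the chi-square of the reads within the groups per degree of freedom, for which counting alone gives about 1. This measure grows with the number of reads, so it does not rank miRNAs of unequal level. The median was 2.59 over the 17 and 8.37 over all tested miRNAs, whereas the median SE of the log2 fold change was 0.28 over the 17 and 0.23 over all. It was under 2 for 8 of the 17, including bta-miR-11971 at 0.944, bta-miR-11984 at 0.792 and bta-miR-11986c at 0.322. It was over 5 for 7, from bta-miR-11972 at 8.79 to bta-miR-11980 at 115.9 and bta-miR-11987 at 219.8. bta-miR-12030, with a read number close to that of bta-miR-12034, had 3.51 where bta-miR-12034 had 21.1. For bta-miR-11985, bta-miR-11975 and bta-miR-11976 the values were 19.0, 16.4 and 15.8. Control replicate 1 was the highest control library for 12 of the 17, against 39.7% of all tested miRNAs, and HS replicate 2 was the highest HS library for 9 of 17, against 36.2%. The part of single libraries in these values was not tested beyond leaving each out.

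**Figure D5:**
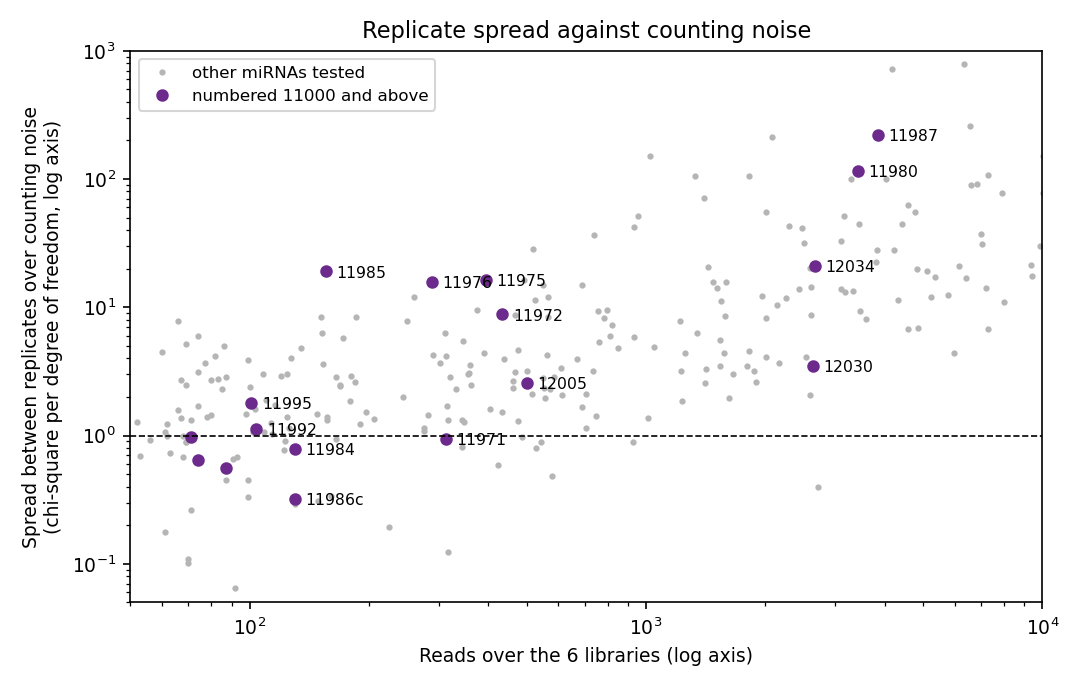
Chi-square per degree of freedom of reads within groups (log axis) against reads over the 6 libraries (log axis, shown from 50 to 10000), with miRNAs numbered 11000 and above in purple, other tested miRNAs in grey and a dashed line at 1, the value for counting noise alone. bta-miR-11987 (219.8) and bta-miR-11980 (115.9) lie far above the line, bta-miR-12030 (3.51) lies nearer to it, and bta-miR-11971 (0.944) is on it.

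The other tested names were low and within the spread between replicates. bta-miR-11992, bta-miR-11993, bta-miR-11995 and bta-miR-12015 averaged 3.47 to 4.79 normalised CPM, with log2 fold changes from -0.22 to 0.20 and limma adjusted p-values from 0.839 to 0.876. Of the 17 tested, 8 had a 95% interval that lay within a log2 fold change of 1 in either direction. For the others, a change of that size was not excluded at this depth and spread. The interval of bta-miR-12030, from -1.61 to -0.78, was negative throughout but reached past that size.

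Among the 47 miRNAs with reads that the filter removed, 36 had reads in both groups, 3 in control libraries alone and 8 in HS libraries alone. No miRNA found in 1 group alone had more than 4 reads, so absence from the other group was not measurable. The study lists 5 of the 97 from these same libraries, bta-miR-12030, bta-miR-11987, bta-miR-11980, bta-miR-11977 and bta-miR-12057, so the list is not independent of the values given here. It calls bta-miR-12030 lower and bta-miR-11987 and bta-miR-11980 higher under HS. The other pair, bta-miR-11977 and bta-miR-12057, are listed at an unadjusted p alone. The last pair were in this low range. bta-miR-11977 had 4, 12 and 6 reads in the control replicates against 5, 1 and 4 under HS. bta-miR-12057, in the gene of the endosomal GTPase RAB4B, had 2, 0 and 4 reads in the control replicates against 4, 7 and 9 under HS. After scaling, neither overlapped between the groups. For bta-miR-11977, lower in HS cells, this rested on 1.67 in control replicate 3 against 1.66 in HS replicate 1. In a limma fit without the filter both had an adjusted p of 0.501. bta-miR-11988, chosen after its values were seen as the untested miRNA with most reads, had 13, 11 and 1 reads in the control replicates against 14, 6 and 4 under HS, a spread of 7.80 on the chi-square scale.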

How the data were processed

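Per the labels and the methods of the study, 100 ng of total RNA went into each library, with adapters that carry unique molecular identifiers and 16 PCR cycles. The authors used Cutadapt 1.11, merged reads sharing an identifier, mapped them with Bowtie2 2.2.2 to bovine genome UMD3.1 and to miRBase, for which the study names 2 different releases, and scaled them with edgeR (TMM). The deposited signal is thus TMM-normalised CPM. In every library 100% of values were whole multiples of 1 read (tolerance 0.01 of a read), and these reads set depth and filter.

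The design assumed that a normalised unit needs limma, so limma 3.58.1 (mean-variance trend, R 4.3.3) was fitted to log2(value + 1) of all miRNAs passing filterByExpr of edgeR 4.0.16, with Benjamini-Hochberg adjustment over all tested. Fold changes of low miRNAs are understated by the added 1. Alternatives were DESeq2 1.42.0 and upper quartile scaling, library totals, pseudocounts of 0.25 and 5, other filters and tests, the replicate number as a block, and each library left out. P-values set the difference between groups against the spread between these libraries, which limma moderates over all tested miRNAs. Whether the libraries stand for separate animals is not stated. Mature sequences were not used here.

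Named miRNAs were those past a threshold, the 12 most abundant, those detected in 1 group, those the study lists and tested ones without overlap. Members and lists were chosen with earlier results of these data known.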

Additional observations from a re-analysis of the deposited data

How the results depend on the processing

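The first threshold asked for an adjusted p no higher than 0.2 and a change by 1 or more on the log2 scale, and the other for an adjusted p under 0.05. Past the first stood 1 of these miRNAs in all 12 alternatives that kept every library, those with edgeR and DESeq2 on recovered reads included, and 1 to 3 with a library left out. Past the second, leaving out a library gave 0 to 3. In both cases the 3 came without control replicate 1, and the 0 without control replicates 2 or 3 or HS replicates 2 or 3, where bta-miR-12030 had an adjusted p of 0.0605 to 0.105. Libraries did not overlap for 3 of 17 miRNAs, for 2 under upper quartile scaling (22.7% of all tested), for 4 under library totals (18.9%) and for 3 of 10 with the stricter filter (20%). Without the filter it was 7 of 64 (10.9%, against 13.9% of all miRNAs tested). With a library left out it was 4 to 9, or 21.1% to 50%, against 25.9% to 37.6% of all tested, as fewer libraries overlap less by construction. The 9 of 18 came without control replicate 1, where 37.6% of all tested did not overlap. Detection followed its minimum: 28 in control and 27 in HS cells at 1, and 2 and 3 at 100. The difference in the share of reads, 0.0179 points, was 0.0488 as a share of reads outside the 10 most abundant miRNAs of the series. It ran from 0.00825 without HS replicate 2 to 0.0320 without control replicate 1. It was -0.000490 without bta-miR-11987 and, chosen after seeing the data, -0.0130 without bta-miR-11987 and bta-miR-11980. Under upper quartile scaling the median of all tested miRNAs lay at -0.18 on the log2 scale, bta-miR-12030 was at -1.38 and bta-miR-11984 at -0.059.

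Named miRNAs were refitted 214 times in all, of which 203 kept direction and side of the 0.2 limit, 5 were newly past it and 6 changed sign, all 6 of miRNAs that had not passed. When a library was left out, bta-miR-11971 ran from -0.21 to 0.058, bta-miR-11975 from -0.29 to 0.46, bta-miR-11984 from -0.048 to 0.24 and bta-miR-11985 from -0.045 to 1.43. The cause was not tested. With the replicate block, limma gave 1 miRNA at each threshold, bta-miR-12030 at an adjusted p of 0.0354, and bta-miR-12034 came to 0.164, with 0.192 in edgeR and, with no block, 0.197 under upper quartile scaling. Deviations of same-numbered libraries correlated across miRNAs at 0.421, -0.117 and 0.616 for replicates 1, 2 and 3, so the numbers are not shown to pair the libraries.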
